A study of Mus musculus with 2 samples.

Results

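Pile-ups made of many distinct fragments were stretches of 500 bp in which reads began at many different places, with few identical reads among them. They were chosen from the read starts of both libraries on chromosomes 1 to 19. A stretch qualified when it held 15 or more distinct positions (chromosome, 5′ end and strand, counted in each library and summed) and fewer than 1.5 reads per position. Of 2878577 bins of 500 bp that held a read, 277 qualified. These counts chose the bins, so the height of a pile-up is a description and carries no test.

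The reads came from chromatin immunoprecipitation followed by sequencing (ChIP-seq) of primary mouse osteoblasts, the bone-forming cells, of strain 129sv, with antibody sc-30486 against Tnni2. One library was made from homozygous Tnni2 del175k mice (mutant) and 1 from their wild-type littermates. Per the series text, n was 3 animals, and whether these were pooled is not given in the labels. With 1 library per genotype there is no replicate check: intervals compare 2 libraries, cover counting error only and say nothing of the genotypes, and neither an input nor a control antibody was analysed here. Whether the cells carried osteoblast markers cannot be read from these data. On chromosomes 1 to 19 the mutant library held 2927228 distinct positions and the wild-type library 2821498, and the mean bin held 0.606 and 0.584 of them.

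Tnni2 encodes the fast skeletal muscle troponin I, the subunit of the troponin complex that holds back contraction. ChIP-seq reads pile up where a protein holds DNA, and at such a place reads on the plus strand start to the left of it and reads on the minus strand to its right. Reads also pile up where the sample holds more copies of a sequence than the reference genome does, and there both strands are spread over the whole length of the copied sequence. Copies of 1 fragment made by PCR share 1 start and so add reads without adding positions.

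The 277 bins held 5676 positions in the mutant library, 0.194% of its autosomal positions (95% exact binomial interval 0.189 to 0.199%), and 5885 in wild type, 0.209% (0.203 to 0.214%). In the mutant library a bin held 3 positions at the least, 16 at the median and 110 at the most. In the wild-type library these values were 0, 16 and 147. Most positions were read once, 89.0% of those in the mutant library and 85.2% in wild type. At the edges of the choice, 14 members held exactly 15 positions, and 21 bins with 14 positions and fewer than 1.5 reads each lay just outside. The highest value among members was 1.49 reads per position, and the lowest among the 47 equally full bins outside was 1.5.

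Of all members, 46.9% lay in a single stretch near the start of chromosome 11. When members at most 10 kb apart were joined, the 277 bins formed 72 blocks. Of these blocks 45 were single bins, 14 were pairs, 4 held 3 or 4 members and 9 held 5 or more. The 9 large blocks together held 190 members, 68.6% of the total (95% exact interval 62.8 to 74.0%). Mouse chromosomes have their centromere at the start, in a stretch that references leave unassembled. Here 176 members in 11 blocks on 7 chromosomes lay within 500 kb of the first read of their chromosome. At the other end, 10 members in 5 blocks lay within 500 kb of the last read, which left 91 members in 56 blocks along the chromosomes.

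The chromosome 11 block ran from 3027001 to 3100000 and held 130 members among its 146 bins. Coordinates are those of the deposited reads, counted from 1, on a mouse build that the sources leave uncertain. Its span held 3177 positions in the mutant library, 21.8 per bin, and 3302 in wild type, 22.6 per bin. The available flanks held 0.954 and 0.951 per bin, so the block stood 22.8 and 23.8 times above them. Within the block the 2 libraries had much the same outline. Across its 144 bins with reads the positions of the libraries were correlated (Spearman 0.885, Pearson 0.872), a description over neighbouring bins of 1 pair of libraries. None of its bins with 15 or more positions reached the limit of 1.5 reads per position. The fullest, from 3093001, held 74 mutant and 66 wild-type positions. Another of its fullest bins, from 3059501, held 64 and 50.

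**Figure D1:**
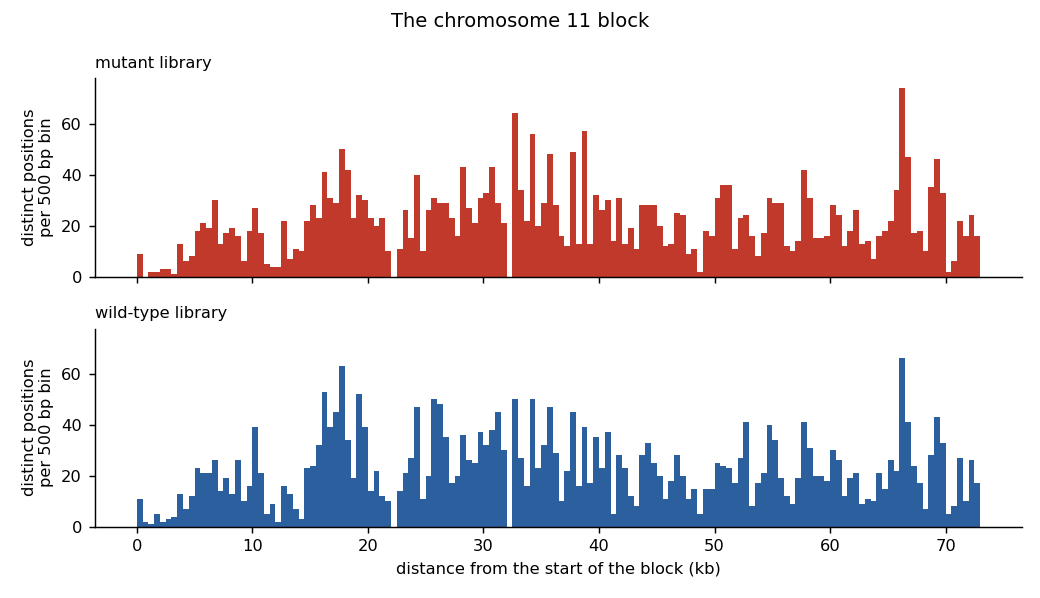
Distinct positions in each 500 bp bin of the chromosome 11 block (vertical axis) against distance from the start of the block in kb, with the mutant library above and the wild-type library below. The fullest bin of the block held 74 mutant and 66 wild-type positions, and peaks and gaps fall at much the same places in both.

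The fullest pile-ups of all stood on chromosome 17 from 39980001 to 39986000, where 11 of 12 bins were members. Its span held 611 mutant and 910 wild-type positions, 299.5 and 523 times the flanks. The mutant to wild-type ratio, scaled by depth, was 0.647 (95% exact interval 0.583 to 0.718). Of the 10 members with the most positions, 7 belonged to this block. The highest, from 39981001, held 110 and 147 positions, and the one from 39982001 held 84 and 119. Counts in the remaining 5, from 39980001, 39980501, 39981501, 39982501 and 39983001, were 60, 50, 70, 61 and 56 in the mutant library and 84, 97, 102, 99 and 92 in wild type. All 7 were lower in the mutant library. The strands were unequal there to a like degree in both libraries. Minus-strand positions made up 56.0% of the block's member positions in the mutant library (51.9 to 60.0%) and 55.9% in wild type (52.6 to 59.1%), against 49.8% and 50.8% over all members.

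The other large blocks held fewer positions in their spans and lay partly at chromosome starts. On chromosome 4 from 3007001 to 3018500, 13 members stood in a span of 194 mutant and 192 wild-type positions, 154 and 93.3 times flanks that were almost empty, at 0.0547 and 0.0895 positions per bin. On chromosome 9 the block of 8 members from 3018501 to 3027500 held 425 and 339 positions. This was 6.32 and 5.52 times its flanks, with a ratio of 1.21 (1.05 to 1.4). Its members held only 195 and 147 of these positions, and the span held 752 mutant and 568 wild-type reads. Reads per position over the whole span were thus above the limit set for members. The fold and the ratio there rest mostly on bins that were not members. On chromosome 16 from 3232501 to 3241500, 6 members lay in a span of 111 and 119 positions, at 28.4 and 35.3 times the flanks. These blocks began 0.546, 18.5 and 149.9 kb from the first read of their chromosomes.

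Of the 9 large blocks, 8 were denser than their flanks in both libraries, which was the rule set for a candidate duplicated stretch. Members were chosen for their counts, so this was nearly bound to hold, and 71 of all 72 blocks were denser than their flanks. The rule counted all positions of a span, including those of bins that were not members, as in the chromosome 9 block from 3018501. Whether any stretch was duplicated was not tested. The exception lay on chromosome 11 from 3001001 to 3005000, with 89 and 66 positions, at 0.699 and 0.498 times flanks that took in the large block beside it. Away from chromosome starts, the block on chromosome 1 from 87487501 to 87490000 had all 5 of its bins as members. It held 92 and 71 positions, 74.3 and 59.8 times its flanks, and the 95% interval of the ratio ran from 0.906 to 1.73. Towards the end of chromosome 9, from 123833001 to 123844500, 5 members lay in a span of 70 and 73 positions, at 7.75 and 7.13 times the flanks. The ninth block, on chromosome 2 from 77720001, is described with the differences between the libraries.

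How far a member stood above its surroundings depended on the width compared. Measured against the 100 kb around each bin, the median member stood 3.04-fold above it in the mutant library and 2.58-fold in wild type. For the 130 bins of the chromosome 11 block these medians were 1.41 and 1.39. The 147 members outside that block had medians of 13.1 and 15.7, and the 73 members in blocks of 1 or 2 bins had 18 and 22.2. Against 1000 kb the chromosome 11 block had medians of 6.44 and 6.09, the chromosome 17 block 142 and 197, and members in blocks of 1 or 2 bins 17.6 and 20.2. In both libraries the fold thus depended on the width in the large blocks more than in the narrow ones. The background left out only the bin and its neighbours, so the rest of a large block counted in it. The chromosome 11 block spans 73 kb and filled much of a 100 kb window. The chromosome 17 block spans only 6 kb. It held 50.9 and 75.8 positions per bin against 0.170 and 0.145 in its flanks, and so raised the 100 kb background by its height.

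**Figure D2:**
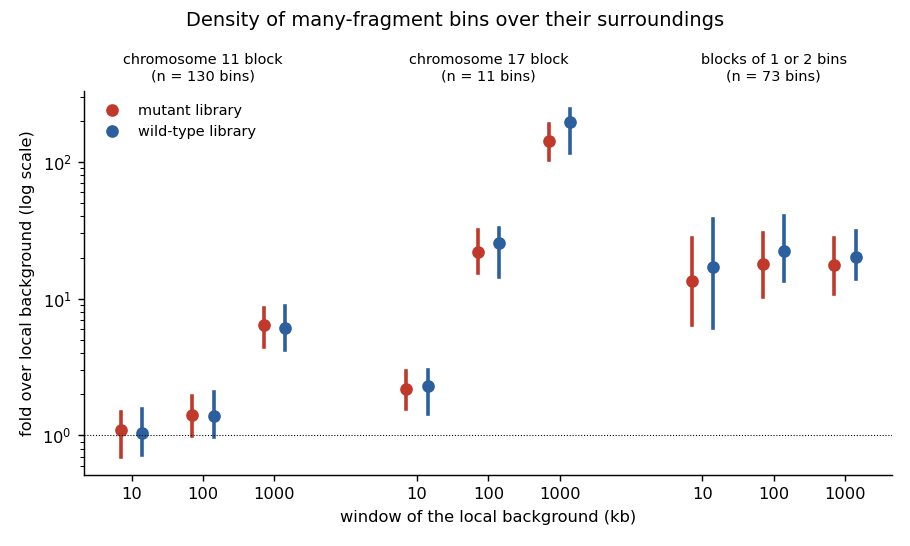
Fold of distinct positions over the local background (vertical axis, log scale) for windows of 10, 100 and 1000 kb around each bin, in the chromosome 11 block, the chromosome 17 block and the members in blocks of 1 or 2 bins. Points are medians over bins and bars their quartiles, with the mutant library left of the wild-type library. The fold grew with the window in both large blocks, to medians of 6.44 and 142 in the mutant library, and moved less for the narrow blocks.

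Among the 10 members that stood highest over their 100 kb background, 3 lay within 500 kb of a chromosome start. The highest, on chromosome 12 from 75905001, held 45 mutant and 36 wild-type positions, 118 and 87.6 times background. On chromosome 3, the bins from 34549501 and 34550001 held 67 and 63 positions, and 45 and 45 positions, at 82.0 and 85.6 times and 51.5 and 57.9 times background. On chromosome 12, the bin from 68160001 held 32 and 30 positions, at 66.4 and 73.9 times background. For all 4 the interval of the ratio between the libraries included 1. Those on chromosome 15 from 74916501, with 12 and 12 positions, and on chromosome 1 from 87489001, with 19 and 23, stood 63.9 and 73.9 times and 46.8 and 74.3 times above background. On chromosome 10 the bin from 21862001 held 13 and 9 positions, at 58.2 and 49.2 times. The 3 near chromosome starts lay on chromosome 18 from 3005501, with 38 and 24 positions, on chromosome 4 from 3155001, with 8 and 7, and on chromosome 13 from 3372001, with 11 and 16. The same held for the other 6.

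The chromosome 3 pile-up had abrupt edges. Its 3 bins from 34549001 to 34550500 held 122 mutant and 115 wild-type positions, with a ratio of 1.02 (0.786 to 1.33). The remaining 1500 bp of the 3000 bp around its centre held 0 and 3 positions. Both strands covered the pile-up throughout, and the mean minus-strand start lay 68.9 bp to the right of the mean plus-strand start in the mutant library and 129 bp in wild type.

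As a whole the members were slightly thinner in the mutant library, and the direction depended on the 2 large blocks of chromosomes 11 and 17. Their 5676 mutant and 5885 wild-type positions gave a depth-scaled ratio of 0.930 (0.896 to 0.964). Without the chromosome 17 block the ratio was 0.982 (0.944 to 1.02). The chromosome 11 block alone had 0.930 (0.885 to 0.977), and the 136 members outside both blocks were higher in the mutant library, at 1.08 (1.01 to 1.15). These 136 included the 19 members on chromosome 2, which held 258 and 105 positions, a ratio of 2.37 (1.88 to 3.00). Many of these 19 reached the minimum mostly through the mutant library, so the 1.08 rests in part on chromosome 2. For the 87 members in blocks of fewer than 5 bins the ratio was 1.0 (0.926 to 1.09). Bins with 8 to 14 positions, which are no members, had a ratio of 0.922 (0.905 to 0.939), and full bins rich in identical reads had 1.01 (0.953 to 1.07). Per bin, 180 of the 277 members lay within 1.5-fold of equality. The Spearman correlation of the 2 counts was 0.739 over all members (Pearson 0.874). Over the 147 members outside the chromosome 11 block it was 0.344 (Pearson 0.892), so outside that block the libraries ranked the members much less alike. The choice used the sum of the 2 counts and not its split. Some bins still reached the minimum mostly through 1 library, and for those the ratio is a description only.

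The 95% interval of the ratio excluded 1 for 33 members, 11.9% of them, against 10.5% of the 324 bins with 15 or more positions, a set made up mostly of these same members. The ratio was higher in the mutant library for 14 members, where the background was 4.32%, and lower for 19, where it was 6.17%. Of the 14, 11 lay on chromosome 2, and of the 19, 8 lay in the chromosome 17 block. Those 11 reached the minimum mostly through the mutant library, where they were high. With intervals widened for 324 bins and a ratio of at least 2-fold, 3 members differed, 2 higher and 1 lower in the mutant library. Over the 324 bins this call was made for 0.926%, for 0.617% as higher and for 0.309% as lower, and the 3 calls are all members.

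One of the 3 lay on chromosome 2 from 77721001, with 15 positions in the mutant library and 0 in wild type. Set against the floor of 3 counts that a count of 0 allows, and with the 15 mutant positions taken as exact, it was 4.82-fold higher in the mutant library. The 95% interval, which covers the counting error of both counts, began at 3.46. It belonged to a stretch from 77700001 to 77900000 in which 11 members together held 144 mutant and 30 wild-type positions, a ratio of 4.63. These bins held between 0 and 6 wild-type positions each and so reached the minimum mostly through the mutant library, and their ratio is a description only. The remaining positions of that stretch, 1251 and 383, also had a ratio well above 1, at 3.15 (2.81 to 3.54). This stretch was picked outside the rule for naming regions, with earlier results of these data known. Within the stretch the excess was not held by the members alone. The block of 6 members from 77720001 to 77738000 inside it held 267 and 51 positions, at 2.82 and 1.49 times its flanks.

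The second, on chromosome 5 from 105357001, held 35 mutant and 6 wild-type positions, a ratio of 5.62 (2.34 to 16.4). With the adjoining member it made a block of 48 and 9 positions, a ratio of 5.14 (2.49 to 11.9). Both bins reached the minimum mostly through the mutant library, so these ratios are descriptions only. The 100 kb on either side held 0.382 and 0.310 positions per bin, so the block stood 62.7 and 14.5 times above its flanks. On chromosome 2 from 27353001 to 27358000, 4 members lay in a span of 99 mutant and 38 wild-type positions, a ratio of 2.51 (1.71 to 3.75), between flanks of 1.03 and 1.06 per bin. Its 4 members held 67 and 21 positions and so reached the minimum mostly through the mutant library, and the ratio is a description only. None of its bins passed the widened interval, and the stretch was named with its values known. The third member that differed, in the chromosome 17 block from 39980501, held 50 and 97 positions, a ratio of 0.497 (0.346 to 0.706).

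**Figure D3:**
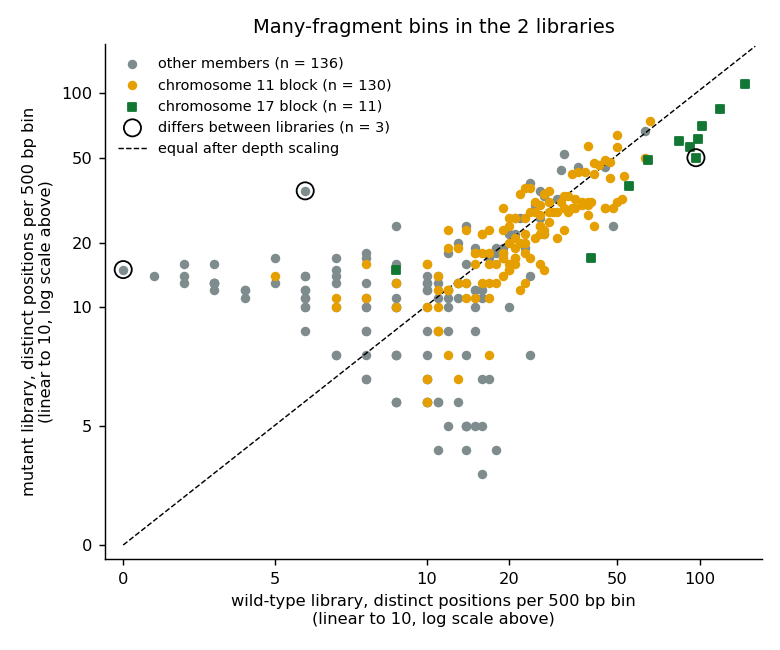
Distinct positions of each of the 277 members in the mutant library (vertical axis) and the wild-type library (horizontal axis), on axes that are linear to 10 and logarithmic above. Circles mark the 3 members that differ, the dashed line marks equality after depth scaling, and the bins of the chromosome 17 block lie below it with 1 exception.

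A choice made in 1 library alone left the other free as a check. When bins were chosen by 8 or more positions and fewer than 1.5 reads per position in the wild-type library, 351 bins qualified. In the wild-type library, which chose them, their median was 6.41 times the 100 kb background. In the mutant library, where they had not been chosen, their median was 1.94 times the 100 kb background, and 29 bins held no position. Their summed mutant positions were 2.28 times background (95% Poisson interval 2.22 to 2.35). The 382 bins chosen in the mutant library had a median of 2.15 times background in the wild-type library, a summed level of 2.38 times (2.32 to 2.45), and 27 bins at 0. In the mutant library, which chose them, their median was 3.66 times background. For bins inside the chromosome 11 block the 100 kb background holds much of that block, which lowers their fold. Of the bins chosen in the wild-type library 208, and of those chosen in the mutant library 213, reached 8 positions in the other library. Both counts are of bins with 8 or more positions in each library. They differ only in where the limit on reads per position was applied, and so are not 2 separate checks. Among all 2878577 bins with a read, 351 and 382 met the choice in the wild-type and mutant libraries.

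The strands gave little shift within the bins. The mean minus-strand start lay to the right of the mean plus-strand start by a median of 16.5 bp over 277 members in the mutant library and 18.1 bp over 269 in wild type. The quartiles ran from -40.7 to 56.2 bp and from -38.5 to 57.5 bp, so many members had the strands the other way round. In bins of 8 to 14 positions the medians were 32.7 and 41.5 bp, and in full bins rich in identical reads 29.0 and 24.6 bp. The chromosome 11 block had a distance above 0 in 72 of 130 bins and 66 of 129 bins, and the medians of members in blocks of 1 or 2 bins were 23.4 and 28.2 bp. A bin of 500 bp limits the distance that can be seen.

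For pairs of reads on opposite strands the order of the sets depended on the measure. Pairs 150 to 280 bp apart with the plus strand on the left (inward) were 1.23 times as frequent as those with it on the right (outward) around members in the mutant library and 1.2 times in wild type. Over the whole of chromosomes 1 to 19 these ratios were higher, 1.46 and 1.52, and around members in blocks of 1 or 2 bins they were 1.43 and 1.29. Counted per 100 positions, the inward excess over both libraries was 35.7 pairs around members and 2.80 over chromosomes 1 to 19. By the ratio members lay below the chromosomes as a whole, and by the excess per position above them. The excess per position grows with the density of starts, by which members were chosen. It was 100 in full bins rich in identical reads and 6.52 in bins of 8 to 14 positions. It therefore cannot compare the strand order of sets that differ in density. Pairs share reads, and no interval is given for them.

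Among blocks of 1 to 4 members, 43 had 10 or more positions in each library over the block and the 500 bp on either side. In 24 of these the minus strand lay to the right in both libraries, and in 8 it lay to the left in both. It lay more than 100 bp to the right in both in 7 blocks, and more than 100 bp to the left in both in 4, all 4 spanning over 1500 bp. These 7, chosen after their values were seen, differed in shape. On chromosome 18 from 40467501 to 40468000 the positions were compact, 22 in the mutant library and 20 in wild type, with the minus strand 142 and 132 bp to the right. On chromosome 11 from 53953501 to 53954500 the bins held 25 and 36 positions, with the strands 303 and 369 bp apart and 0 and 1 positions in the remaining 2000 bp of the 3000 bp around the centre. Here plus-strand starts outnumbered minus-strand starts, 17 against 8 in the mutant library and 25 against 12 in wild type. On chromosome 15 from 74916001 to 74917000 the distances were 162 and 157 bp, over a window that took in a fuller bin just outside the choice. This block held 23 and 23 positions and the rest of the 3000 bp around it 58 and 52. In the other 4 many starts lay beside the block as well. On chromosome 1 from 173461501 the block held 10 mutant and 8 wild-type positions and the rest of the 3000 bp around it 21 and 19. On chromosome 2 from 77827501 these counts were 10 and 6 inside and 18 and 9 beside, and from 77863501 they were 24 and 7 inside and 21 and 7 beside. On chromosome 3 from 8245501 they were 17 and 16 inside and 14 and 10 beside.

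**Figure D4:**
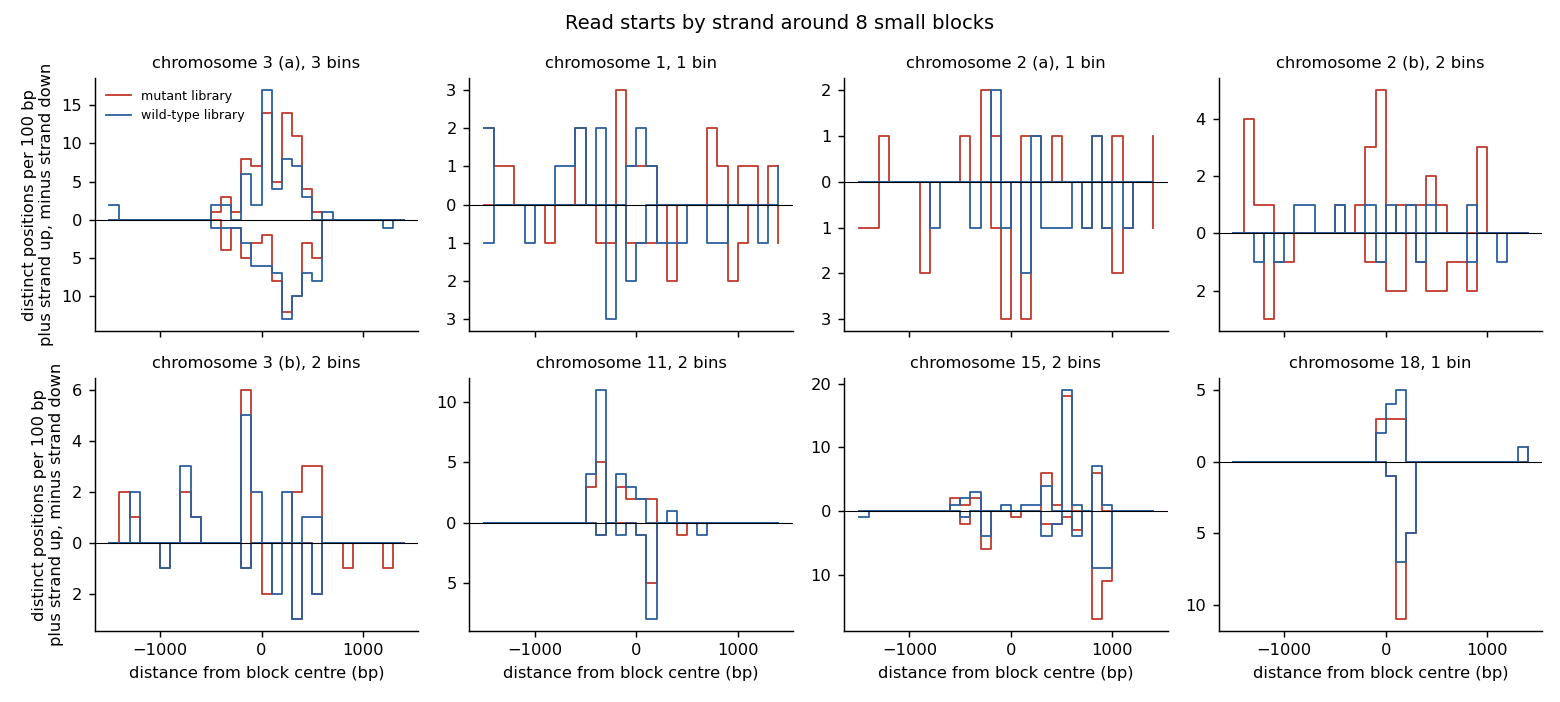
Distinct positions per 100 bp (vertical axis, plus strand drawn up and minus strand down) against distance from the block centre in bp, for the chromosome 3 block of 3 bins (a) and the 7 blocks with strands more than 100 bp apart in both libraries. The chromosome 18 and chromosome 11 blocks show plus-strand starts left of minus-strand starts in both libraries, whereas both strands fill the chromosome 3 block.

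By the rule set for candidate isolated sites, 25 members qualified. They lay in blocks of 1 or 2 bins, stood at least 5-fold over the 100 kb background in each library and had the minus strand to the right in each. Of the 62 members that met the first 2 conditions, 9 had the minus strand to the left in both libraries. With strand order measured over 1500 bp, a width that was not planned beforehand, 31 members qualified. Only 17 of the 25 were among these 31, so membership of the set depended on the width used for the strands. The 25 held between 15 and 62 positions in all and stood 5.79 to 66.4 times over background in the mutant library and 5.43 to 73.9 times in wild type. Only 2 of them had strands over 100 bp apart within the bin in both libraries, on chromosome 18 from 40467501 and on chromosome 10 from 21862001.

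Among the 10 fullest candidates, the interval of the ratio included 1 for all except 1. On chromosome 12 the bins from 68160001 and 68160501 held 32 and 30, and 19 and 19 positions, and on chromosome 6 the bin from 103599001 held 22 and 27. On chromosome 18 the bin from 56099001 held 18 and 18, and on chromosome 16 the bin from 10975001 held 20 and 13. The candidates on chromosome 3, from 56379001 and 99785001, held 18 and 12, and 12 and 15. On chromosome 2 the bin from 181652001 held 16 and 14. The exception lay on chromosome 5 from 147072501, with 8 and 24 positions and a ratio of 0.321 (0.125 to 0.739). It reached the minimum mostly through the wild-type library, so this ratio is a description only. Over all 25 the ratio ran between 0.321 and 4.18.

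The libraries also shared some exact starts. Of the members' positions, 473 were the same base and strand in both libraries, 8.33% of the mutant positions (7.63 to 9.08%) and 8.04% of the wild-type positions (7.36 to 8.76%). Each bin offers 1000 possible starts, and the other library filled 3.31% and 3.20% of them, weighted by the positions of each bin. In the chromosome 11 block the shared share was 4.51% and 4.35%, against 3.02% and 2.92% filled. In the chromosome 17 block it was 13.0% and 8.69%, against 9.92% and 6.65% filled. For the 136 members outside these blocks it was 13.0% and 14.6%, against 1.71% and 1.91% filled. Members outside both blocks thus exceeded the filled share by more than the blocks did. The filled share takes starts as spread evenly over a bin. In some small blocks the starts sat in only part of a bin, which raises the shared share at equal filling. The sets therefore cannot be compared on equal terms by this measure, and the cause of the sharing was not tested. In full bins rich in identical reads the share was 63.3% and 66.3%, and in bins of 8 to 14 positions 0.942% and 0.901%.

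**Figure D5:**
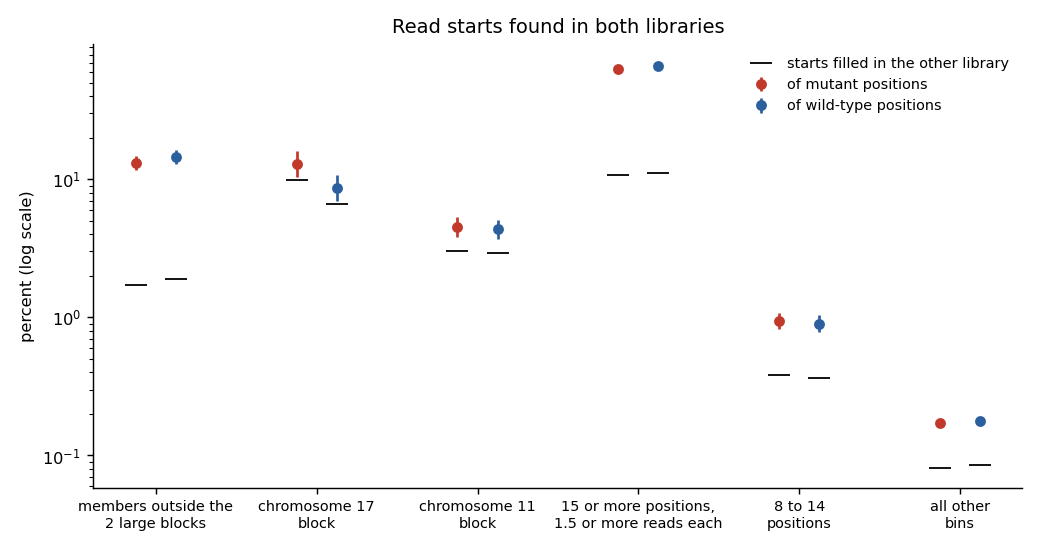
Share of distinct positions found at the same base and strand in both libraries (vertical axis, percent, log scale), of the mutant positions on the left and of the wild-type positions on the right, for 3 sets of members and 3 sets of other bins. Bars are 95% exact binomial intervals and dashes the share of possible starts filled in the other library, and members outside the large blocks lie furthest above their dashes among the members, at 13.0% against 1.71% for the mutant positions.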

How the data were processed

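The submitters' processing notes name Bowtie as the aligner. Its version, its settings and how reads with several placements were handled: not given in the sources used here. The deposited files list 1 aligned read of 36 bp per line, with no header. The deposited score is 255 on every line and was not used. All counts were made here from the deposited coordinates, which hold no counts or peaks of the authors. The series text names mouse reference 8, but reads on chromosome 7 reach position 152524453, which from general knowledge is past the end of that chromosome there, so the build is uncertain. Without a sequence or annotation of it, no gene was assigned to a region.

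Repeated reads at 1 position were counted once. Ratios are mutant over wild type, scaled to distinct positions on chromosomes 1 to 19, with exact Clopper-Pearson intervals, and calls widened by Bonferroni correction over 324 bins. Background windows were clipped to the stretch with reads and left out the bin and its neighbours. Regions named were the 10 members with the highest fold over 100 kb, the 10 fullest, all blocks of 5 or more, all that differ, and the 10 fullest candidate sites; a few regions outside that rule are marked as such where they appear. Members, lists and rules were chosen with earlier results of these data known. The comparison between libraries and the pair counts were tested on simulated data. The scripts used pandas 2.3.3 and numpy 2.4.6 for counting, scipy 1.17.1 for intervals and matplotlib 3.10.9 for figures, under Python 3.11.15.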

Additional observations from a re-analysis of the deposited data

Results flagged for a closer look

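Chromosomes X and Y lie outside the choice of members, and the same thresholds there gave 17 bins on X and 88 bins on Y. They were singled out as signal in data that the comparisons above do not use. The 17 bins on X held 305 mutant and 222 wild-type positions, a depth-scaled ratio of 1.32 (95% exact interval 1.11 to 1.58). The rest of X ran the other way, with 72112 and 97297 positions and a ratio of 0.714 (0.708 to 0.721). On Y the bins held 2715 mutant and 810 wild-type positions, and their ratio was 3.23 (2.99 to 3.50). Outside them, Y had nearly the same ratio, 3.14 (2.80 to 3.51), from 1321 and 406 positions, so the excess was found across Y and not in these bins alone. The part that these shifts of whole chromosomes play in the bins was not tested.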

How the results depend on the processing

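Of 44 alternative values, 28 kept their call or stayed within the limits set for each. Some of these limits were wide. Candidate duplicated blocks numbered 12 in place of 8 with 3 or more members. Candidate isolated sites numbered 31 in place of 25 with strands over 1500 bp, and the median strand distance over both libraries was 20.5 bp there in place of 13.4 bp. These still counted as within the limits. A minimum of 10 or 30 positions gave 869 or 145 members in place of 277, and a minimum of 20 gave 44 blocks in place of 72. With gaps of up to 2 kb, 62.5% of members lay in blocks of 5 or more. The median fold over the local background, 2.90 over both libraries, was 1.72 with a 10 kb window, 9.79 with a 1000 kb window and, chosen after the data were seen, 15 without the chromosome 11 block. With 6 positions required in the choosing library, the median folds in the other were 1.36 (mutant) and 1.47 (wild type). The ratio of inward to outward pairs, 1.21, was 1.19 at 100 to 300 bp, 1.35 outside blocks of 5 or more and, chosen after the data were seen, 1.16 without the chromosome 11 block. The summed ratio of 0.930 turned to 1.0 outside blocks of 5 or more, and its interval included 1 at 0.967 without the 10 fullest bins and, chosen after the data were seen, at 0.982 without the chromosome 17 block. Without widening, 23 members differed by 2-fold or more, 14 higher and 9 lower in the mutant library. The causes were not tested, except that some settings use fewer bins. No paired analysis was possible because each genotype has 1 library, and no library could be left out. Depth limits bins near the minimum, where 15 positions leave wide intervals.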
